A study of Homo sapiens with 4 samples.

Results

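The genes described here are the cytosolic ribosomal protein genes, which encode the protein parts of the 60S (large) and 40S (small) subunits of the cytoplasmic ribosome. They were taken by symbol alone: RPL or RPS followed by a number, with the suffixes A, X, L and L1, together with RPLP0, RPLP1, RPLP2 and RPSA. This gave 83 of the 28283 genes in the expression table, 51 of the large and 32 of the small subunit, spread over 21 chromosomes with 12 of them on chromosome 19. Pseudogenes, genes on the Y chromosome, readthrough genes and the mitochondrial ribosomal proteins (MRPL and MRPS) were not members. FAU, which encodes a ribosomal protein fused to a ubiquitin-like protein, and RPL36AL also lie outside the rule.

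The cells were A549, a human lung adenocarcinoma cell line. Both groups had been transduced with a lentivirus and selected with puromycin, the shNC cells with the control vector and the shY2-2 cells with 1 shRNA against YTHDF2, a protein that binds m6A-modified RNA. For each condition, poly(A) RNA was fragmented and sequenced as it was (input), and fragments bound by an antibody against N6-methyladenosine (m6A) were sequenced as the IP library. There were thus 4 libraries, 1 of each kind per condition, from a single line and a single shRNA. The differences between conditions below compare these libraries only, and none carries a p-value. How many sequenced fragments lie behind a value is unknown.

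A ribosome needs its proteins in nearly equal numbers, and the mRNAs that encode them are short, abundant and translated under joint control. In mammals these mRNAs begin with a C followed by an unbroken run of pyrimidines, the 5′ terminal oligopyrimidine (TOP) tract, through which mTOR signalling and LARP1 adjust their translation. Many of the genes also carry small nucleolar RNAs (snoRNAs) in their introns. m6A is laid down on adenosines in the DRACH context, of which GGAC is a frequent core, and YTHDF2 is known for leading such mRNAs to decay.

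The annotated starts of the genes show a pyrimidine tract in most members, but not in all. RefSeq promoter sequence (GRCh38.p14) was matched for 66 of the 82 members expressed here. The 8 starts below are those of the RNA with the highest ratio between conditions (RPS12), of other members at the ends of the ratio order (RPL35, RPL9, RPS13, RPS27L), and of the pairs RPS27 and RPS27L and RPL22 and RPL22L1. Each holds the 5 bases before the annotated start and the first 20 of the transcript, with the pyrimidine tract that opens the transcript in capitals.
RPS12, chr6:132814564-132814588, plus strand: gaggcCTCTTTCCCTgccgccgccg
RPL35, chr9:124861938-124861962, minus strand: acttcCTCTTTCCCTCggagcgggc
RPS13, chr11:17077648-17077672, minus strand: gctctCCTTTCgttgcctgatcgcc
RPS27, chr1:153990757-153990781, plus strand: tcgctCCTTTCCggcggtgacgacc
RPS27L, chr15:63157458-63157482, minus strand: cgagcgcagatcgcttgcagcttgc
RPL22, chr1:6199576-6199600, minus strand: acctcCCTTTCTaactccgctgccg
RPL22L1, chr3:170870176-170870200, minus strand: gcttcCTCTCTgctctcgcggccga
RPL9, chr4:39458903-39458927, minus strand: acgacagacgttctttctttgctgc

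A C at the annotated start followed by pyrimidines to a run of at least 5 was present in 43 of the 66 members (65.2%). The same start was found in 434 of 8579 other expressed genes (5.06%) and in 1104 of all 27305 promoters (4.04%). Allowing the tract to open within 3 bases of the annotated start gave 48 members (72.7%) and 14.3% of the other expressed genes. RPS27L and RPL9 had no such tract at their annotated starts, whereas RPS27 and RPL22L1 did. The count rests on annotated starts, not on starts measured in these cells.

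The members were short genes in the reference annotation (GENCODE release 44). Their canonical transcripts had a median spliced length of 827 nt, against 3275 nt for the 10604 other expressed coding genes. The median 5′ UTR was 42 nt (133 nt in the others), the median coding sequence 456 nt (1377 nt) and the median 3′ UTR 166 nt (1294.5 nt). A few members were exceptions, with RPL37 at 7573 nt, RPL14 at 7136 nt and RPS27L at 6110 nt, nearly all of it 3′ UTR. Of the expressed members, 28 had snoRNA genes inside them, 60 snoRNA genes in all. The same count was not made for other expressed genes.

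As a check of the labels, YTHDF2 itself had 3.56 FPKM (fragments per kb of exon, relative to all that were mapped) in shNC cells and 1.02 FPKM in shY2-2 cells. All 8 epithelial and A549 markers examined were expressed, among them KRT8 (523 and 322 FPKM), KRT18 (388 and 281 FPKM) and ALDH1A1 (2157 and 1238 FPKM), and 7 of the 8 were lower in shY2-2 cells. Of 4 markers of other cell types, PTPRC, CD3E and PECAM1 were under 0.1 FPKM in both libraries, and COL1A1 had 0.834 and 1.64 FPKM.

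Ribosomal protein mRNAs were among the most abundant in both input libraries. Of the 83 genes, 82 reached 1 FPKM in both libraries. The exception was RPL3L, a striated muscle paralog of RPL3, with 0.149 and 0.223 FPKM. In shNC cells the 82 ran from 10.4 FPKM (RPL7L1) over a median of 155.3 to 1366 FPKM (RPL41), and in shY2-2 cells from 8.41 FPKM (RPS27L) over 200.4 to 1834 FPKM (RPL41). The median of all 12268 expressed genes was 5.18 and 4.93 FPKM. Members held 8.74% of the summed FPKM in shNC cells and 10.7% in shY2-2 cells, and 23 and then 28 of the 100 highest genes.

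**Figure D1:**
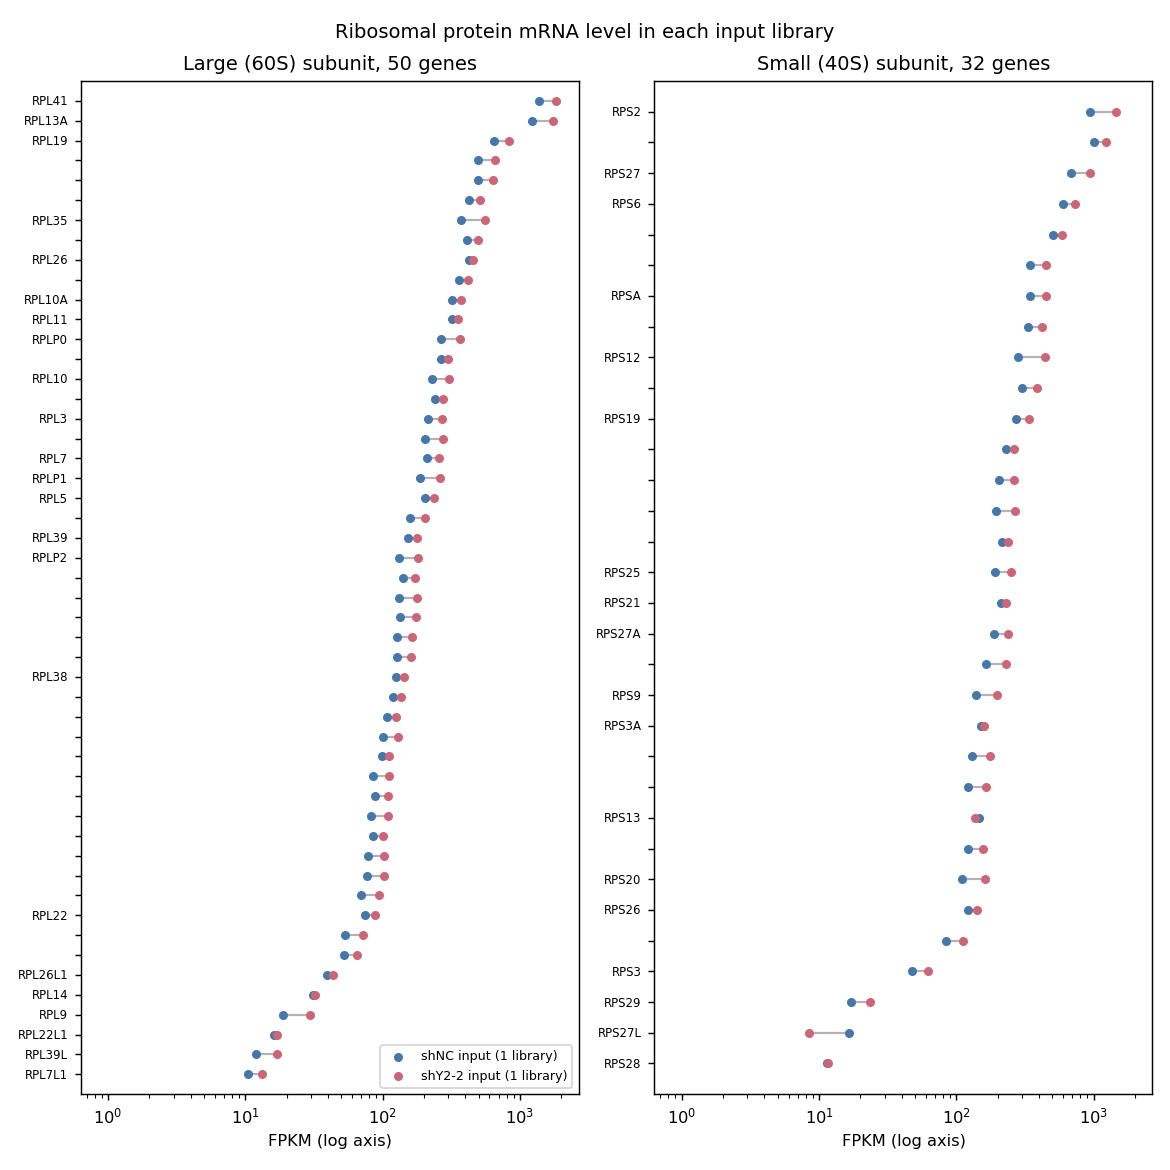
FPKM of each of the 82 expressed ribosomal protein genes (log axis), with the large subunit on the left and the small subunit on the right, ordered by level, with names for genes whose FPKM or ratio the text gives, the shNC input library in blue and the shY2-2 input library in red. The red point is to the right of the blue in 80 genes, and to the left in RPS27L and RPS13.

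Equal numbers in the ribosome were not matched by equal FPKM. FPKM is scaled by length, and genes are compared here on that scale. How well the scaling holds for the shortest members, such as RPS29 with a canonical transcript of 295 nt, was not tested. RPL41, which encodes the smallest ribosomal protein, was highest with 1366 FPKM in shNC cells. Among the next were RPL13A with 1234 FPKM, RPS2 with 940.3 FPKM, RPS27 with 687 FPKM and RPL19 with 649.9 FPKM. At the low end were RPL7L1 with 10.4 FPKM, RPS28 with 11.4 FPKM, RPL39L with 12 FPKM, RPL22L1 with 16.2 FPKM, RPS27L with 16.6 FPKM and RPS29 with 17.1 FPKM. RPS28 and RPS29 are core proteins of the small subunit, and the others in this low set are paralogs of a more abundant member. The order of the levels was nearly the same in the other condition (Pearson r = 0.99 and Spearman rho = 0.99 across 82 genes, which are not independent replicates).

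Pseudogenes make some levels uncertain. Processed copies of these genes are near identical in sequence, so reads can be divided between a gene and its copies. The table listed 281 pseudogenes of 61 members, and 61 pseudogenes were themselves expressed. For 7 members the pseudogenes summed above the gene itself in shNC cells. RPS28 had 11.4 FPKM and its pseudogene RPS28P7 579 FPKM. RPL9 had 18.7 FPKM and RPL9P9 alone 346 FPKM. RPL21, RPL23A, RPL7 and RPL3 were among the others. Summed with its pseudogenes, RPL9 had 439 FPKM in shNC cells. The spread over members stayed as it was, with an SD of the log2 level of 1.52 in shNC cells alone and summed, and the lowest level remained 10.4 FPKM.

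Nearly all members were higher in shY2-2 cells by a small amount. FPKM are shares of a library, so a larger share and more of the RNA per cell cannot be told apart. The log2 ratio was taken as log2 of (shY2-2 FPKM + 1) over (shNC FPKM + 1), which understates the difference of low genes. Of the 82 members 80 had a positive ratio (97.6%), where 50.3% of all expressed genes did, and 2 a negative ratio, where 49.7% did. The median log2 ratio of the members was 0.35, a fold of 1.27, with quartiles of 0.22 and 0.42. The median of all expressed genes was 0.00 with quartiles of -0.26 and 0.24. The large subunit (median 0.34, 50 of 50 higher) and the small subunit (median 0.37, 30 of 32 higher) had similar values.

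Few members differed by much. Past a log2 ratio of 0.32, the smallest size counted, 47 members (57.3%) were higher, against 18.5% of all expressed genes, and 1 was lower by that size, against 21.0%. At 1.5-fold, 3 members were higher (3.66%), which is under the 5.38% of all expressed genes, and 1 was lower (1.22%), against 8.92%. At 2-fold, the size the study called, no member was higher or lower, where 0.986% of all expressed genes were higher and 2.14% lower. The members therefore lay in a narrow band above 0 rather than at the ends of the range.

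**Figure D2:**
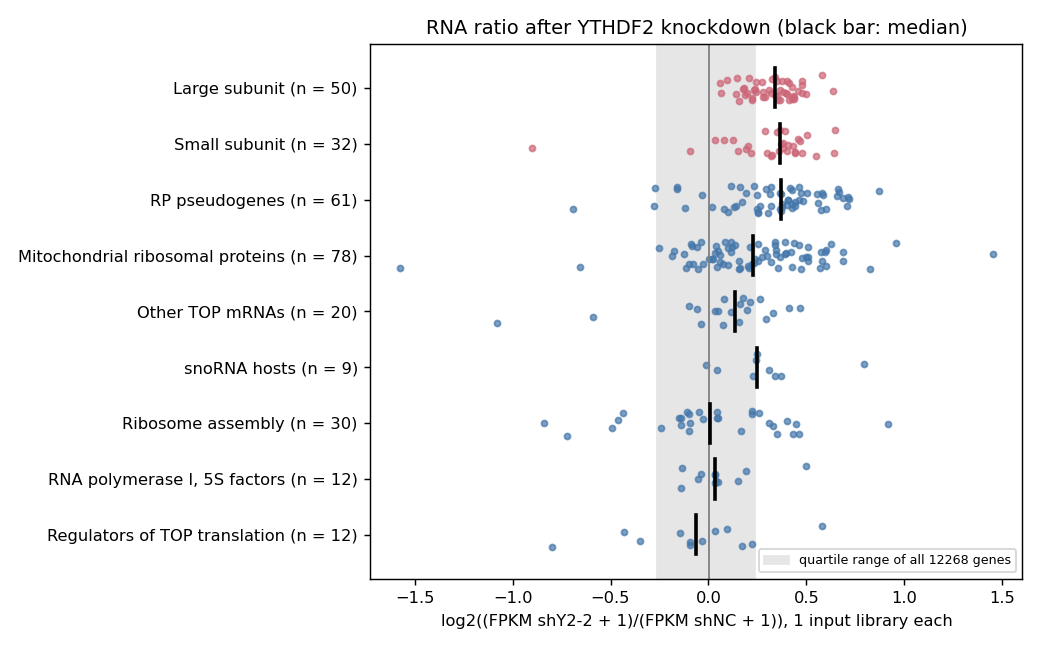
Log2 ratio of shY2-2 over shNC input FPKM on the x axis, 1 point per expressed gene, in rows for the large and small subunit, pseudogenes and 6 lists of related genes, with black bars at the medians and a grey band over the quartile range of all expressed genes. The subunits centre on 0.34 and 0.37, above the band, and RPS27L at -0.90 is the lowest member.

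The highest ratios came from both subunits. RPS12, a small subunit protein, had 283 FPKM in shNC cells and 443 FPKM in shY2-2 cells (log2 ratio 0.64). RPS2, which sits near the mRNA entry of the small subunit, had 940.3 and 1466 FPKM (0.64), and RPL9 had 18.7 and 29.7 FPKM (0.64). These were the 3 members past 1.5-fold. RPL35, which lies beside the exit of the peptide tunnel, had 374 and 559 FPKM (0.58), RPS20 109 and 161 FPKM (0.55), RPS9 139 and 198 FPKM (0.50) and RPL13A 1234 and 1742 FPKM (0.50). RPLP1 and RPL39L had log2 ratios of 0.48 each.

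At the other end stood RPS27L, a paralog of RPS27 known as a target of p53. It had 16.6 FPKM in shNC cells and 8.41 FPKM in shY2-2 cells (log2 ratio -0.90). RPS27 itself had 687 and 943 FPKM (0.46). The gene lies on chromosome 15 (63125872 to 63158021, minus strand), and its canonical transcript has a 3′ UTR of 5783 nt. RPS13, with 145 and 136 FPKM (-0.10), was the only other member below 0.

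The rest of the 10 lowest were positive but close to 0. RPS28 had 11.4 and 11.7 FPKM (0.04), RPL22L1 16.2 and 16.9 FPKM (0.06), RPL14 31.0 and 32.4 FPKM (0.06) and RPS3A 150.4 and 159 FPKM (0.08). RPL26 had 422 and 451 FPKM (0.10), RPS21 210.4 and 229.8 FPKM (0.13), RPL11 320.0 and 353 FPKM (0.14) and RPL26L1 39.4 and 43.7 FPKM (0.14).

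The paralogs did not share a value. The 5 expressed paralogs had a median log2 ratio of 0.14, and the other 77 members a median of 0.36. RPL39L, a paralog known from testis and from cancer cells, had 12 and 17 FPKM (0.48), while RPL39 had 152 and 177 FPKM (0.22). RPL22L1 (0.06) stood beside RPL22, with 74.2 and 87.9 FPKM (0.24). RPL7L1, with 10.4 and 13.3 FPKM (0.32), and RPL7, with 211 and 256 FPKM (0.28), were close, as were RPL26L1 (0.14) and RPL26 (0.10). Whether the paralogs differ from the other members could not be tested with 1 library per condition.

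Members with known separate roles were all higher too, with log2 ratios from 0.14 to 0.48. The stalk proteins, which recruit translation factors, had log2 ratios of 0.46 (RPLP0, 267 and 367 FPKM), 0.48 (RPLP1, 189 and 263 FPKM) and 0.47 (RPLP2, 131 and 182 FPKM). RPL5 (202 and 238 FPKM, 0.24) and RPL11 (0.14), which bind 5S rRNA and can hold back MDM2, were both in the lower part. RPSA, also known as the laminin receptor, had 341 and 452 FPKM (0.40). RPS27A, made as a fusion with ubiquitin, had 187 and 239 FPKM (0.35).

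RPS6, the substrate of S6 kinase, had 598 and 736 FPKM (0.30), and RPS3, which also has roles in DNA repair, 47.4 and 62.4 FPKM (0.39). RPL10, of the subunit joining face, had 229.7 and 304 FPKM (0.40) and RPL10A 318 and 374 FPKM (0.23). RPL38 (126 and 143 FPKM, 0.18), RPS25 (192 and 249.9 FPKM, 0.38) and RPS26 (122 and 141 FPKM, 0.20), each linked to the translation of particular mRNAs, did not share a value. RPS19 and RPL3 had 271 and 339 FPKM (0.32) and 214 and 272 FPKM (0.34).

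Medians of the members split by snoRNA genes or by the annotated start ran from 0.28 to 0.37. Members with snoRNA genes inside had a median log2 ratio of 0.34 (28 genes) and those without 0.36 (54 genes). Those with a TOP tract at the annotated start had 0.37 (43 genes) and those without 0.34 (23 genes). By a C at the start alone, the medians were 0.37 (47 genes) and 0.28 (19 genes). Among other expressed genes the 434 with such a tract had a median of 0.07 and the rest -0.01. Across the 82 members the ratio was weakly related to log2 mean FPKM (Pearson r = 0.31, Spearman rho = 0.14) and to log2 spliced length (r = -0.28, rho = -0.17), across genes that share both libraries.

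The ratio varied with level and length in other genes too, though not steadily with level. Among non-members the median log2 ratio was -0.04 at a mean of 1 to 5 FPKM and 0.16 at 50 to 100 FPKM. It was 0.11 at 100 to 200 FPKM and 0.09 above that. Among 243 other genes averaging 100 FPKM or more, leaving out members and their pseudogenes, the median log2 ratio was 0.09 and 61.3% were higher. The 61 members at that level had a median of 0.35 and 60 were higher. Other coding genes under 1000 nt had a median of 0.16 (626 genes, 70.0% higher), and those of 4000 nt or more a median of -0.12 (4092 genes, 36.9% higher). In the same length classes the members had medians of 0.36 (46 genes) and 0.22 (6 genes). In between, from 1000 to under 2000 nt, members had 0.30 (17 genes) and others 0.11, and from 2000 to under 4000 nt, 0.37 (13 genes) and 0.02. When ratios were centred on all non-member genes at that level, with pseudogenes kept in, an alternative chosen after seeing the data, the members' median was 0.24, 75 of 82 were higher and none passed 1.5-fold. The part of length, of level or of the shares of other RNAs in the members' ratios was not tested.

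**Figure D3:**
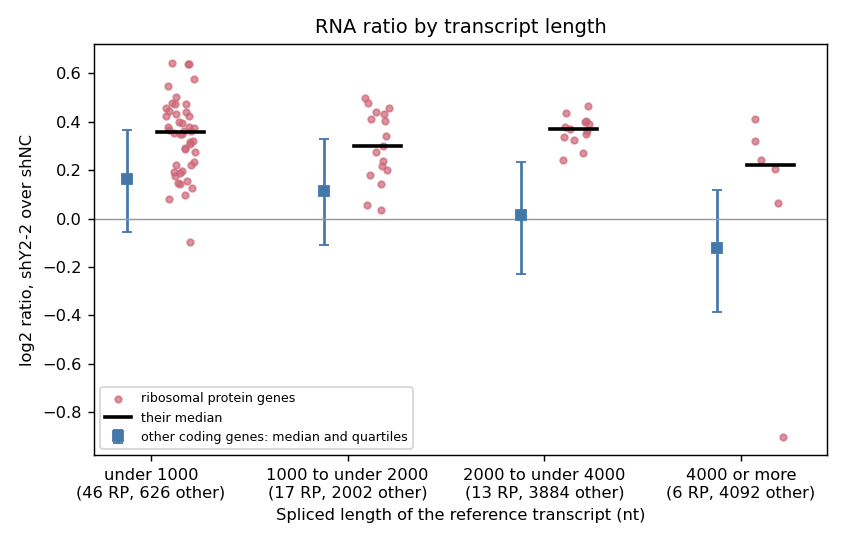
Log2 ratio of shY2-2 over shNC by spliced length of the canonical transcript in 4 classes, with each ribosomal protein gene as a point, their median as a line and the median and quartiles of other coding genes beside them. The median of the other genes goes from 0.16 in the shortest class to -0.12 in the longest, and the members' median is above it in each class.

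Most expressed pseudogenes were higher in shY2-2 cells too. The 61 expressed pseudogenes had a median log2 ratio of 0.37, and 54 were higher. RPL9P9 had 346 and 557 FPKM and RPS28P7 579 and 612 FPKM, so that the high ratio of RPL9 and the low ratio of RPS28 were also seen in their copies, which may hold reads of the same mRNA. RPS3A, among the lowest ratios at 0.08, was different: its pseudogenes summed to 104 and 156 FPKM and the gene with them had a log2 ratio of 0.31. With each member summed with its pseudogenes, the median was 0.35 and 80 were higher. Readthrough genes, which share exons with RPL17 and RPL36A, were not higher: RPL17-C18orf32 had 14.4 and 9.21 FPKM and RPL36A-HNRNPH2 148 and 148 FPKM.

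Mitochondrial ribosomal protein mRNAs were also mostly higher in shY2-2 cells. The mitochondrial ribosomal proteins, which build the separate ribosome of that organelle, had a median log2 ratio of 0.23 over 78 genes, with 63 higher, 9 past 1.5-fold higher and 2 past 1.5-fold lower. MRPL12 had 159 and 221 FPKM. Other mRNAs known to carry a TOP tract had a median of 0.14, with 15 of 20 higher. FAU (94.0 and 130.1 FPKM, 0.46) was above the members' upper quartile of 0.42. RPL36AL, a gene outside the rule that was looked up with earlier values known, had 253 and 247 FPKM (-0.03).

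Within that list some abundant TOP mRNAs went the other way. EEF1G, a subunit of the elongation factor complex that loads aminoacyl-tRNA, had 507 FPKM in shNC cells and 239 FPKM in shY2-2 cells (-1.08), and TPT1, a growth-related protein, 144 and 95.0 FPKM (-0.59). EEF2, which drives translocation, had 489.7 and 616 FPKM (0.33), and EEF1A1 833 and 928 FPKM (0.16). The 6 elongation factors had a median of 0.11, with 5 of 6 higher. RACK1 (-0.04) and NPM1 (-0.10), both abundant, were near 0.

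Factors that make ribosomes showed no common direction. The 30 ribosome assembly factors had a median of 0.01 with 15 higher, from BYSL (12.6 and 24.7 FPKM, 0.92), which works on the small subunit, to NMD3, the export adaptor of the large subunit (11.5 and 5.96 FPKM, -0.84), and SBDS, which frees the large subunit of EIF6 (33.8 and 20.1 FPKM, -0.72). The 12 factors of RNA polymerase I and of 5S rRNA had a median of 0.03 with 8 higher and none past 1.5-fold. The 12 regulators of TOP mRNA translation had a median of -0.06 with 5 higher. Among them RPS6KB1, the S6 kinase, had 12.9 and 7.00 FPKM (-0.80), LARP1 42.3 and 47.7 FPKM (0.17) and MTOR 5.20 and 5.62 FPKM (0.09). Of 9 noncoding snoRNA hosts with a TOP tract, 8 were higher, with a median of 0.25 and ZFAS1 at 24.3 and 42.8 FPKM (0.79).

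Almost every ribosomal protein gene held an m6A peak in both conditions. The deposited peaks are stretches of exon with more IP than input signal, called in each condition from 1 IP and 1 input library. Of the 31057 peaks of shNC cells 261 were in members, and of the 27344 of shY2-2 cells 267 were. These deposited lists hold more peaks than the study reported for either condition. In each list 80 of the 82 expressed members had a peak (97.6%), against 81.2% of all expressed genes in shNC and 78.4% in shY2-2 cells. The same 80 had a peak in both lists, where 72.7% of all expressed genes did. RPS28 and RPL32 had none. Among 296 other genes that reached 100 FPKM in an input library the shares were 85.1% and 85.8%.

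Sequences of strong shared peaks are shown at a GGAC in the part that both lists cover, as the letters under the enrichment. Each is 21 bases of the GRCh38 reference on the strand of the gene, with GGAC in capitals. They were read from the reference, and no modified base was mapped at them.
RPL7L1, chr6:42887814-42887834, plus strand, 3′ UTR in exon 6: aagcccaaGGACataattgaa
RPL37A, chr2:216502298-216502318, plus strand, 3′ UTR in exon 4: tttagccaGGACaacactctg
RPL27A, chr11:8687116-8687136, plus strand, 3′ UTR in exon 5: attcagctGGACaattttaaa
RPS10, chr6:34426038-34426058, minus strand, 5′ UTR in exon 1: ccggtaccGGACcctgcagcc
RPS14, chr5:150449628-150449648, minus strand, intron of the canonical transcript: ggggcttgGGACgagagacgg
RPS13, chr11:17077401-17077421, minus strand, intron of the canonical transcript: gcgcgctgGGACcggggagaa
RPS24, chr10:78037262-78037282, plus strand, coding sequence in exon 4: agtcagggGGACtgcaaaggc

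The peak of RPL7L1, a paralog with a long 3′ UTR, had a fold enrichment of 25.3 in shNC and 14.3 in shY2-2 cells over 1257 nt. In RPL37A, a zinc-binding protein of the large subunit, the enrichment was 8.58 and 14.2, and in RPL27A 11 and 8.55. RPS10 had 9.92 and 7.71, RPS14 8.51 and 10.1, RPS13 7.63 and 15.0 and RPS24 6.61 and 6.53. RPL30 had a shared peak with 14.5 and 9.64 whose sequence is not shown. RPL37 had a shared peak in its 3′ UTR with 10.7 and 11.6 and no GGAC in the shared part. The highest enrichment of any member peak, 34.3 in RPS10 in shNC cells, belonged to a stretch of 269 nt around the start of the gene.

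GGAC was found in a similar share of member peaks and of other peaks. It was present in 61.7% of member peaks in shNC and 65.9% in shY2-2 cells, and in 61.0% and 60.6% of all other peaks, on the strand of the gene. Per kb of peak there were 3.10 and 3.22 GGAC in members and 4.11 and 3.96 in the others. DRACH, a pattern that contains GGAC in part of its forms, was present in 95.0% and 95.9% of member peaks and in 95.3% and 95.1% of all other peaks. Its density was 16 and 16.1 per kb in members, lower than the 19.4 and 18.9 per kb of the others.

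Most member peaks were of moderate enrichment. The median fold enrichment was 2.42 in shNC (quartiles 1.83 and 3.49) and 2.53 in shY2-2 cells (1.85 and 3.51). Peaks of all other genes had medians of 2.17 and 2.25, and those of these 296 other high genes had 1.75 and 1.80. Members with a peak held 3.26 and 3.34 peaks on average, other genes 2.58 and 2.28. An enrichment of at least 4 was reached in 30 members in shNC cells (36.6%), against 27.9% of all expressed genes, and in 36 in shY2-2 cells (43.9%), against 27.6%. In both lists 23 members reached it, a count not made for other genes, so whether the members differ in it is unknown. At a deposited FDR of at most 0.05, 80 members kept a peak in each list, against 64.8% of all expressed genes in shNC and 56.9% in shY2-2 cells. That limit was met by 84.7% and 83.9% of member peaks, and by 87.0% and 84.7% of peaks of the other high genes, against 56.1% and 51.8% of all other peaks.

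Member peaks touched the start of the coding sequence more often, and the 3′ UTR less often, than peaks of other genes, while their midpoints seldom lay in the 5′ UTR. By overlap with the canonical transcript, 24.5% of member peaks in shNC cells touched the 5′ UTR (95% Wilson interval 19.7 to 30.1) and 24.7% in shY2-2 cells, against 9.19% and 9.83% of peaks in other coding genes. A window of 100 nt around the start codon was touched by 39.8% and 40.1%, against 11.2% and 11.5%. The 3′ UTR was touched by 32.2% in each list, against 48.4% and 50.5%, and the window around the stop codon by 29.1% and 28.1%, against 21.8% in each. The coding sequence was touched by 67.8% and 68.5%, against 53.2% and 47.6%. With a median spliced length of 827 nt and a median peak of 329 and 331 nt, a single peak often spanned several of these regions, and the part of transcript length in the location was not tested. Intervals cover the counting of peaks only.

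By midpoint, 0.766% of member peaks in shNC cells and 1.5% in shY2-2 cells lay in the 5′ UTR, against 3.19% and 3.17% in other coding genes. The higher share at the 5′ UTR thus holds for overlap and not for midpoints. It also holds by the authors' annotation, at 38.3% and 38.6% of member peaks, against 15.3% and 15.7% of all other peaks. The 3′ UTR held 14.6% of member midpoints in each list, against 39.9% and 42.0%. The coding sequence held 29.9% and 30.7% of member midpoints, against 35.1% and 29.4%, so its higher share by overlap was not seen by midpoint in shNC cells. By the same rule 129 of the 261 member peaks in shNC cells (49.4%) and 129 of 267 in shY2-2 cells (48.3%) fell in an intron of the canonical transcript, against 15.7% and 17.8% of peaks in other coding genes. Of these, 126 in each list lay in an exon of another annotated isoform. Such isoforms are dense in these genes: 48.0% of all annotated exon bases of the members lie in canonical introns, and 32.3% in other expressed coding genes. The intronic peaks had a median fold enrichment of 2.55 and 2.60, and the other member peaks 2.35 and 2.49. The midpoint was the middle base of a peak's exonic stretches, so it lay inside the called peak and not in a gap between stretches.

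**Figure D4:**
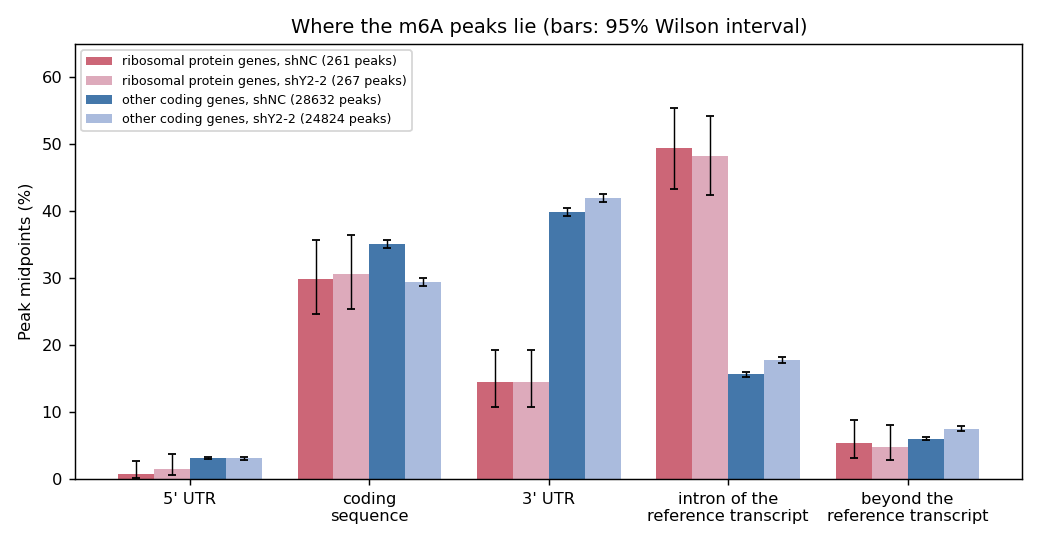
Share of peak midpoints, in percent, in each region of the canonical transcript for ribosomal protein genes (red) and other coding genes (blue), dark for the shNC and light for the shY2-2 list, with error bars for 95% Wilson intervals. Members have 49.4% and 48.3% of midpoints in introns of that transcript, and 14.6% in the 3′ UTR in each list.

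Some member peaks, wherever their midpoints lay, touched snoRNA genes. In shNC cells 9 peaks in 9 members touched a snoRNA gene, and in shY2-2 cells 13 peaks in 10 members did. Peaks of other genes were not counted in this way, so whether the members differ from them is unknown. RPL13A, on chromosome 19, had 1 peak in shNC cells, in its 3′ UTR with a fold enrichment of 2.17. In shY2-2 cells the same peak had 2.28, and 3 more were listed at SNORD32A (4.65), SNORD33 (1.48) and SNORD34 (1.24). A peak at SNORD43 in RPL3 had 6.40 and 6.81, and a peak at SNORD15A in RPS3 4.26 and 4.84.

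The peaks were largely shared between conditions. In shNC cells 220 of 261 member peaks (84.3%) met a peak of the other list by at least 1 nt, and in shY2-2 cells 225 of 267 (84.3%). For all other genes the shares were 55.6% and 65.2%, and for the 296 other high genes 81.5% and 86.7%, so the members' shares were near those of genes of high level. The number of peaks was equal in both lists for 41 members, larger in shNC for 18 and larger in shY2-2 cells for 21. Other genes were not counted in this way. Those with a peak held 2.58 peaks on average in shNC and 2.28 in shY2-2 cells. RPS15A went from 5 to 8 peaks, RPL35 from 1 to 3 and RPL22 from 3 to 1. RPL28 held 7 in each list.

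Where a peak had its best partner in the other list, giving 206 pairs, the enrichment was higher in shY2-2 cells in 138, lower in 66 and equal in 2. The share higher was thus 67.0%, against 42.2% of 15416 pairs in all other genes and 45.4% of 496 pairs in the other high genes. The median log2 ratio of the enrichments was 0.10, with quartiles of -0.08 and 0.29, where all other genes had -0.07 and the other high genes -0.01. Of the member pairs, 22 passed 1.5-fold upward (10.7%) and 14 downward (6.80%). All other genes had 9.87% upward and 14.9% downward, and the other high genes 6.25% and 5.65%. By the ratio of the enrichments, peaks of RPL14 (2.42 and 9.25), RPL39L (2.07 and 6.94) and RPS3A (1.79 and 4.42) were highest. Peaks of RPL6 (9.16 and 2.69), RPL15 (4.96 and 1.95) and RPL24 (4.32 and 2.04) were lowest. The length of a peak differed within such pairs, at 151 and 600 nt in RPL14 and at 598 and 419 nt in RPL6. These 6 were chosen after their values were seen.

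**Figure D5:**
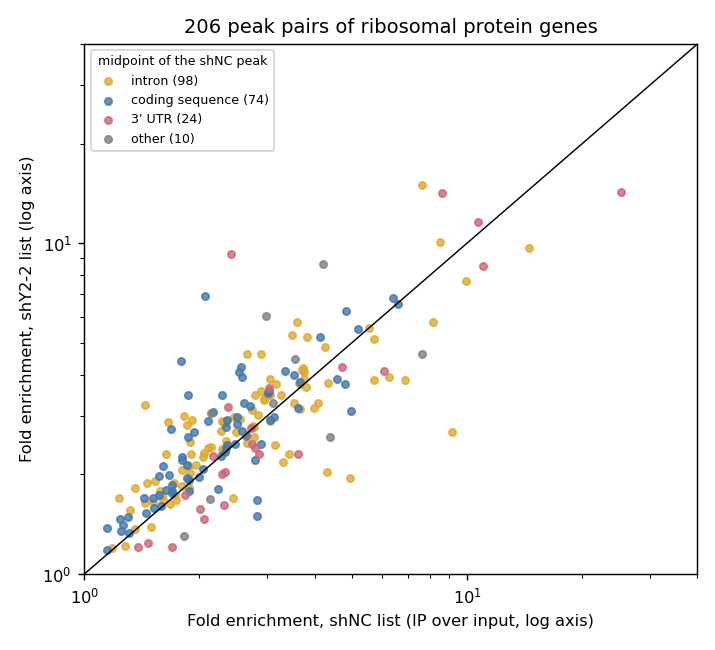
Fold enrichment of IP over input in 206 pairs of peaks of ribosomal protein genes, shNC list on the x axis and shY2-2 list on the y axis, both on log axes, coloured by the region of the shNC midpoint. Points follow the diagonal of equal values, with 138 above and 66 below it.

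Members at the ends of the RNA ratios had peaks in both conditions. RPS27L, lower in shY2-2 cells, had 3 peaks in each list. Its peak with midpoint in the coding sequence had an enrichment of 2.64 in both, and the peak in its 3′ UTR, at 2.83, was in the shNC list alone. RPS12, the highest in ratio, had 1 peak across most of the gene with 2.35 and 2.53, RPS2 a peak at its start with 5.2 and 5.5, and RPL9 a peak at its end with 2.79 and 2.21.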

How the data were processed

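Per the labels and the study's methods, the authors aligned reads with HISAT2 (build GRCh38) and derived the deposited FPKM of each gene from the input libraries with StringTie. They called peaks with exomePeak, 1 IP against 1 input library in each condition, and annotated them with ChIPseeker. The p-value, the log10 scores of p-value and FDR and the fold enrichment of a peak are as deposited by the authors, the last being an IP to input ratio on a linear scale. The processing notes also name fastp and HOMER. Versions and annotation release are not given in the sources used here. No column of values was left without a sample. Depth is unknown, and no interval is given for an FPKM or an enrichment.

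Ratios used a pseudocount of 1 FPKM over the 12268 genes with at least 1 FPKM in at least 1 input library. Log2 ratios past 0.32 and sizes of 1.5- and 2-fold were counted without a test. Transcript regions came from GENCODE release 44 and starts from RefSeq. Peaks were compared by exonic overlap of at least 1 nt on the same strand. Scripts ran in Python 3.11.15 with pandas 2.3.3, NumPy 2.4.6, SciPy 1.17.1 and matplotlib 3.10.9, and were tested on simulated data.

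The members and lists were chosen with earlier results of these data known. Genes named are the 10 highest and 10 lowest ratios, the 6 highest and 6 lowest levels, the paralogs with the genes they are named after, 16 members with known separate roles, the strongest peaks, peaks of members at the ends of the ratio order and YTHDF2, plus members of the comparison lists picked as examples. Some genes that this rule names are counted but their values are not reported here. Alternatives were other pseudocounts, FPKM filters, centring, folds, peak limits, overlap and location rules.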

Additional observations from a re-analysis of the deposited data

How the results depend on the processing

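Of 528 values recomputed under alternatives, 367 had been listed in advance and 161 were added after seeing the data. The median log2 ratio of the members was positive under all of them, while list medians near 0 changed direction. By midpoint, so did the 5′ UTR comparison with other genes and, in shNC cells, the coding sequence comparison. Pseudocounts of 0.1 and 5, other FPKM filters, centring on all genes (a shift of 0.01), sums with pseudogenes and leaving out the 7 members with dominant pseudogenes kept the members' median log2 ratio between 0.34 and 0.36. Centring on other genes with a mean FPKM of at least 100, a shift of 0.10, gave a median of 0.24 with 0 members past 1.5-fold higher, and medians of 0.0303 for other TOP mRNAs, -0.0711 for RNA polymerase I and 5S factors and -0.0992 for ribosome assembly, the last also being -0.00398 when centred on all genes. RPL14, RPL22L1, RPL26, RPS28 and RPS3A changed sign under the former centring. Regulators of TOP mRNA translation had 0.17 among genes of at least 10 FPKM. With 2-fold as the size, 0 members were higher and 0 lower, and with 0.32 on the log2 scale 47 were higher. A fold enrichment of at least 4 left 47 peaks in 30 members in shNC cells, 49 peaks in 36 members in shY2-2 cells and 23 members in both. Other genes with such a peak in both lists were not counted. By midpoint, member peaks lay in the 5′ UTR in 0.766% and 1.5% (3.19% and 3.17% in other coding genes; shNC, shY2-2). They lay in the coding sequence in 29.9% and 30.7% (35.1% and 29.4% in other coding genes) and in the 3′ UTR in 14.6% and 14.6%. By the authors' annotation 38.3% and 38.6% were in the 5′ UTR (15.3% and 15.7% of all other peaks). In the 3′ UTR were 43.3% and 42.7% (59.2% and 59.6% of all other peaks). The midpoint rule counts canonical introns apart, and for the other changes the cause was not tested. Of 391 ratios of 44 named genes, 48 moved by more than 0.1. No paired analysis was possible because each condition has 1 library of each kind, and for the same reason no library could be left out.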
